A study of Homo sapiens with 6 samples.

Results

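The genes described here encode the subunits of the 5 complexes of oxidative phosphorylation, measured by RNA sequencing in A549 cells given anlotinib or DMSO. They were chosen by name among protein-coding genes: every gene whose symbol begins with MT-, UQCR, ATP5F, ATP5M or ATP5P, the NDUFA, NDUFB, NDUFC, NDUFS, NDUFV, COX4 to COX8 and SDH genes that carry the usual number or letter, and NDUFAB1. This gave 95 of the 30483 genes in the table, 13 of them encoded in mitochondrial DNA and 82 in the nucleus. NDUFA4 and NDUFA4L2 are counted with complex IV, where the NDUFA4 protein sits. Some subunits fall outside the name rule, among them CYC1 and COX4I1, and are given with the other genes of the pathway.

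Complexes I to IV pass electrons from NADH and succinate to oxygen and pump protons out of the mitochondrial matrix, except complex II, which pumps none. Complex V, the ATP synthase, lets the protons flow back and makes ATP. Mitochondrial DNA encodes a few core membrane subunits of complexes I, III, IV and V. The nucleus encodes the rest, including all of complex II, so each mixed complex needs transcripts from both genomes. Mitochondrial transcripts are cut out of long precursors that cover nearly a whole strand of the circular genome. The nuclear subunit genes are not transcribed together in this way.

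A549 is a human lung adenocarcinoma line of epithelial origin, and anlotinib is an inhibitor of several receptor tyrosine kinases, including VEGF, FGF and PDGF receptors. There were 3 libraries of cells given 5 µM anlotinib and 3 of cells given DMSO, and the treatment protocol gives 48 h. The labels do not say whether the libraries of a group came from separate cultures, so each p-value speaks of the spread among these 6 libraries alone, and that spread may be technical. Libraries held 13886120 to 15386107 reads in genes. Of 7 epithelial markers 6 averaged at least 10 normalized counts, EPCAM being the exception at 4.04 to 11.5 counts over the 6 libraries, and all 3 A549 detoxification enzymes did. The summed epithelial markers reached 38698 to 57566 with anlotinib and 71699 to 75195 with DMSO. The lower sum came mainly from KRT7 (17178 to 26039 with anlotinib and 41891 to 45221 with DMSO), with KRT18 also lower and KRT8 overlapping, while CDH1, KRT19 and CLDN4 were higher in every anlotinib library. Among markers of other cells, the fibroblast list summed to 452 to 734 with anlotinib and 2173 to 2943 with DMSO, most of it COL1A1. THY1 was also lower in every anlotinib library, while PDGFRB and LUM were higher in every one. PDGFRB had 10.6 to 12.4 counts with anlotinib and 2.04 to 5.13 with DMSO. LUM had 4.75 to 7.98 counts with anlotinib and 2.14 to 4.08 with DMSO, and DCN stood at 0 to 3.80 counts. Endothelial markers summed to 11.1 to 23.1 with anlotinib and 8.16 to 14.4 with DMSO, and blood markers to 83.3 to 90.8 with anlotinib and 58.2 to 93.4 with DMSO. The part of these shifts in the results below was not tested, and in RNA from whole cultures fewer cells of a type and less RNA per cell cannot be told apart.

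Few respiratory chain mRNAs passed the test with anlotinib, and most differences were small. All 13 mitochondrially encoded mRNAs had a positive log2 fold change, between 0.07 and 0.30 with a median of 0.14, and none passed the test. The sign held for all 13 under every scaling and tool, but it turned negative for MT-ATP8 (-0.26) without anlotinib library 1, for MT-CO2, MT-ND3 and MT-ND4L (-0.02 to -0.03) without anlotinib library 2, and for MT-ATP8, MT-ND3, MT-ND4L and MT-ND5 (-0.11 to -0.01) without DMSO library 1. Nuclear encoded mRNAs leaned the other way: 65 of the 81 tested had a negative log2 fold change, with a median of -0.13, beside a median of -0.02 over all 15734 genes tested. That number was 55 with libraries scaled by their totals, 48 with totals of nuclear genes and 57 to 69 with 1 library left out. Of the 94 members tested, 2 rose (NDUFA4L2 and COX7A2L) and 4 fell (UQCRC1, NDUFS8, SDHA and ATP5MC1) at an adjusted p of 0.05 in limma, 6.38% in all. Among all genes tested 23.2% passed, 10.5% higher and 12.7% lower, so fewer members than genes at large passed. One member, the read-through gene ATP5MF-PTCD1, averaged 1.26 counts and was not tested. A pseudocount of 1 was added to each normalized count before taking log2, which draws the fold change of genes with few reads towards 0.

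The ratio of summed mitochondrial to summed nuclear member counts was 13.2, 14.6 and 12.4 in the anlotinib libraries, against 10.1, 11.1 and 11.3 in the DMSO libraries. The groups did not overlap, and the mean ratio with anlotinib was 1.23 times that with DMSO. This ratio is taken within each library, so no choice of scaling alters it. As a share of all reads, mitochondrial mRNAs made up 7.73, 8.59 and 6.93 percent in the anlotinib libraries, against 6.18, 6.85 and 6.67 percent in the DMSO libraries, without overlap. The nuclear members made up 0.585, 0.590 and 0.559 percent in the anlotinib libraries, against 0.610, 0.616 and 0.590 percent in the DMSO libraries, all 3 anlotinib values lying below the lowest DMSO value, though anlotinib library 2 and DMSO library 3 were almost equal. After the authors' scaling the summed mitochondrial counts were 1188195, 1257312 and 924099 in the anlotinib libraries, against 918627, 1062594 and 1013809 in the DMSO libraries, and there the groups overlapped with anlotinib library 3 near the DMSO libraries.

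**Figure D1:**
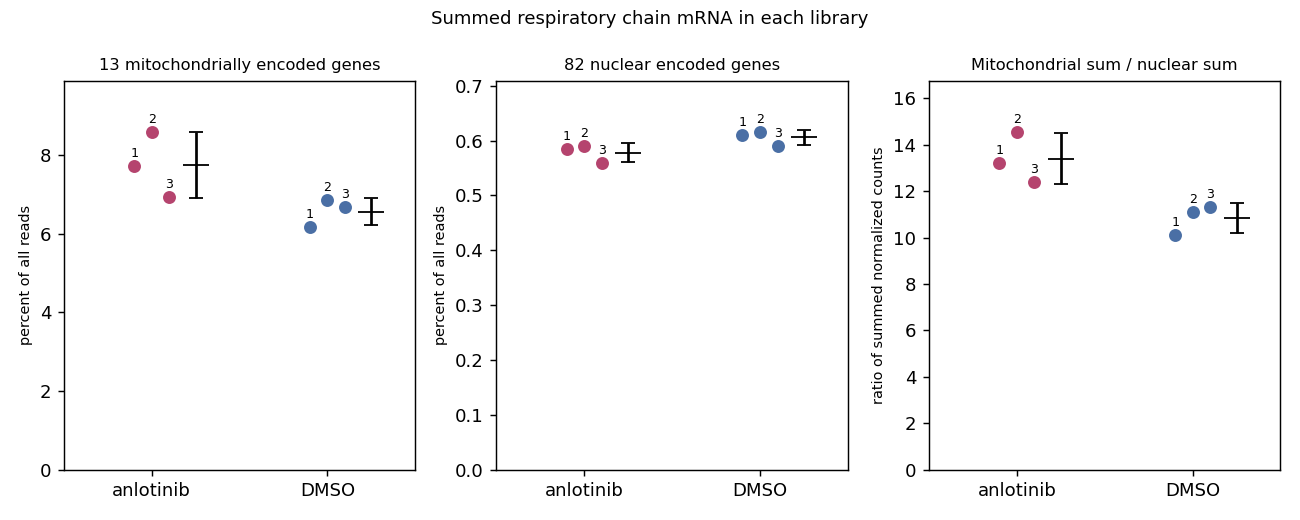
Points are libraries, numbered by replicate, and the bar beside them is the mean with its SD (n = 3). The left and middle panels show the percent of all reads in the 13 mitochondrially and the 82 nuclear encoded genes, and the right panel their ratio, which was 12.4 to 14.6 with anlotinib and 10.1 to 11.3 with DMSO.

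The same ratio taken within each mixed complex put the sum of its mitochondrial subunit mRNAs over the sum of its nuclear ones. For complex I it was 13.8, 16.5 and 13.8 in the anlotinib libraries, against 10.7, 11.8 and 11.98 in the DMSO libraries. For complex III, where MT-CYB is the sole mitochondrial gene, it was 11.2, 12.1 and 9.22 in the anlotinib libraries, against 8.04, 9.11 and 9.07 in the DMSO libraries. Both were higher in every anlotinib library than in any DMSO library. Complex V gave 2.61, 2.87 and 2.51 in the anlotinib libraries, against 2.02, 2.19 and 2.25 in the DMSO libraries, also without overlap. Complex IV gave 40.3, 43.1 and 37.8 in the anlotinib libraries, against 33.6, 34.9 and 37.8 in the DMSO libraries, and here the lowest anlotinib and the highest DMSO library met.

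Per kilobase of exon, the mitochondrial mRNAs were far more abundant than the nuclear ones. The median mitochondrial gene stood at 61273 normalized counts per kb with anlotinib and 57852 with DMSO, against 288 and 324 for the median nuclear member. MT-CO1, the catalytic subunit of complex IV, was the highest, at 245771, 251919.6 and 195728 per kb in the anlotinib libraries, against 185463, 210654 and 208689.8 in the DMSO libraries. It alone carried 30.6 to 32.7 percent of the summed mitochondrial mRNA counts over the 6 libraries. MT-CO2 and MT-CO3, the other mitochondrial subunits of complex IV, ranked next, then MT-ATP6, MT-CYB and MT-ND4. The order of group means was the same with anlotinib as with DMSO for 11 of the 13 genes; MT-ND5 and MT-ND6 changed places in the order, with group means of 30309 and 32565 per kb with anlotinib and 28849 and 27949 per kb with DMSO. Neighbouring genes often overlapped between libraries: MT-ND4L spanned 43022 to 70624.6 per kb and MT-ND1 44765 to 68078 per kb.

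**Figure D2:**
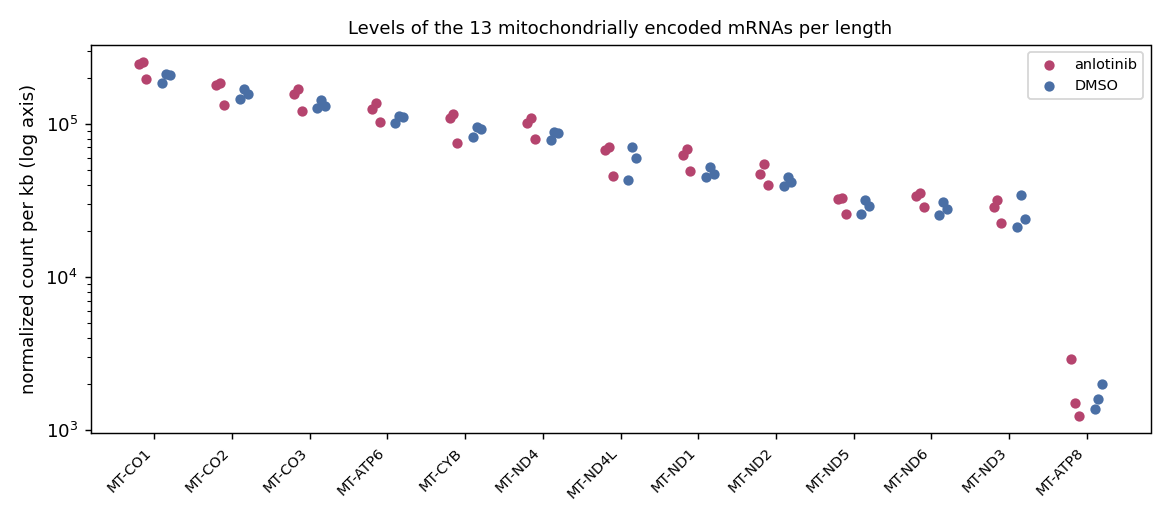
Each point is 1 library's normalized count per kb of exon on a log axis, anlotinib left of DMSO for each gene, genes ordered by their DMSO mean. MT-CO1 stands at the top and MT-ATP8 far below the rest, and the groups overlap for all 13 genes.

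MT-ATP8, a small subunit of the ATP synthase membrane part, stood apart at the bottom, at 2914, 1502 and 1246 per kb in the anlotinib libraries, against 1381, 1597 and 1989 in the DMSO libraries. Its reading frame overlaps that of MT-ATP6, the subunit that forms the proton channel, and the pair is known to lie on 1 transcript. MT-ATP6 was nonetheless 42.7 to 90.5 times higher per kb over the 6 libraries. Of the 207 bases of MT-ATP8 (chrM:8366-8572, plus strand, GRCh38 with GENCODE 29), 46 are shared with MT-ATP6; they are in capitals below, and the sequence is shown because reads over them belong to both genes.
MT-ATP8: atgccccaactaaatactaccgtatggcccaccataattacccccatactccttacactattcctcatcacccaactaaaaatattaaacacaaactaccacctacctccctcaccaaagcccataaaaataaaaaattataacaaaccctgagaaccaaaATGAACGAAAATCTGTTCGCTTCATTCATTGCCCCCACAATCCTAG
How the counting treated reads that fall in both genes is not given in the sources used here. MT-ND4L and MT-ND4, which also lie on 1 transcript, share 7 bases, and their per-kb levels differed by 1.24 to 1.82 times. The low level of MT-ATP8 is thus measured on a short gene with shared bases, and its change with anlotinib had a wide interval (-0.43 to 0.64 on the log2 scale).

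Among complex I core subunits of the membrane arm, which mitochondrial DNA encodes, MT-ND1 had 59657, 65083 and 46793 normalized counts in the anlotinib libraries, against 42795, 50085 and 45107 in the DMSO libraries. Anlotinib libraries 1 and 2 were above every DMSO library, and library 3 lay among them. The log2 fold change was 0.30 ± 0.15 (SE, n = 3 each; adjusted p = 0.169), the smallest p of the 13. MT-ND6, encoded on the opposite strand to the other 12, had 17742, 18502 and 15045 normalized counts in the anlotinib libraries, against 13369, 16114 and 14536 in the DMSO libraries. Its log2 fold change was 0.22 ± 0.12 (SE, n = 3 each; adjusted p = 0.195), with its libraries placed in the same way. Without anlotinib library 3 both passed in limma (MT-ND1 0.00962, MT-ND6 0.0299), as they did when libraries were scaled by their totals (MT-ND1 0.0091, MT-ND6 0.016).

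The other 5 mitochondrial complex I genes had log2 fold changes of 0.07 (MT-ND5), 0.08 (MT-ND3), 0.09 (MT-ND4L), 0.17 (MT-ND2) and 0.19 (MT-ND4). MT-CYB, cytochrome b of complex III, had 124579.7, 133118 and 85892 normalized counts in the anlotinib libraries, against 93053, 108976 and 105001 in the DMSO libraries. Its libraries spread widely with anlotinib, from below the lowest to above the highest DMSO library, and the log2 fold change was 0.14 ± 0.19 (SE, n = 3 each; adjusted p = 0.641). MT-CO1 had 378979, 388460.0 and 301813 normalized counts in the anlotinib libraries, against 285984, 324828 and 321799.7 in the DMSO libraries, with the first 2 anlotinib libraries above and the last within the DMSO range. Its log2 fold change was 0.19 ± 0.22 (SE, n = 3 each; adjusted p = 0.578), beside 0.07 for MT-CO2 and 0.14 for MT-CO3. MT-ATP6 had 0.15 and MT-ATP8 0.10. None of the 13 had an unadjusted p under 0.05 in limma, edgeR called 0 and DESeq2 called 1 of them, MT-ND1. The median half-width of their 95% intervals, which are not adjusted, was 0.38 on the log2 scale. For a typical mitochondrial mRNA a change of that size or less could thus not be told from none. A larger change need not pass the adjusted test.

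Copies of mitochondrial genes lie in nuclear DNA on chromosome 1 and are listed in the table as pseudogenes. MTATP6P1 (chr1:633696-634376) had 4344, 5000.2 and 3226 normalized counts in the anlotinib libraries, against 3302, 8540.2 and 4159.5 in the DMSO libraries, at most 10.0 percent of its pair with MT-ATP6 and highest in DMSO library 2. MTND2P28 (chr1:629640-630683) had 4217, 4230.1 and 2717 normalized counts in the anlotinib libraries, against 2994, 4049 and 3988 in the DMSO libraries, 6.11 to 8.44 percent of its pair with MT-ND2. The copies of MT-ND1, MT-CO1 and MT-CO3 stayed at or under 0.613 percent. Adding the copies' reads to the genes changed the calls of none of the 94 members; for MT-ATP6 the log2 fold change became 0.12.

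Of the 94 tested members 21 had groups that did not overlap, 4 higher and 17 lower with anlotinib, or 22.3% in all. Over all genes tested the share was 40.2%, with 18.8% higher and 21.4% lower. None of the 21 was mitochondrial. An unadjusted p under 0.05 was found for 17 members (18.1%) and for 36.0% of all genes. By complex, the nuclear members had median log2 fold changes of -0.14 in complex I (37 genes), -0.10 in II (4 genes), -0.12 in III (9 genes), -0.02 in IV (14 genes) and -0.14 in V (17 genes tested). With totals of nuclear genes these were -0.0423 in I, -0.00103 in II, -0.0233 in III, 0.0769 in IV and -0.0451 in V, so the median of complex IV turned positive, as it did with library totals (0.0547), in edgeR (0.0111), in DESeq2 (0.00306) and without anlotinib library 3 (0.0373) or DMSO library 2 (0.0467).

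**Figure D3:**
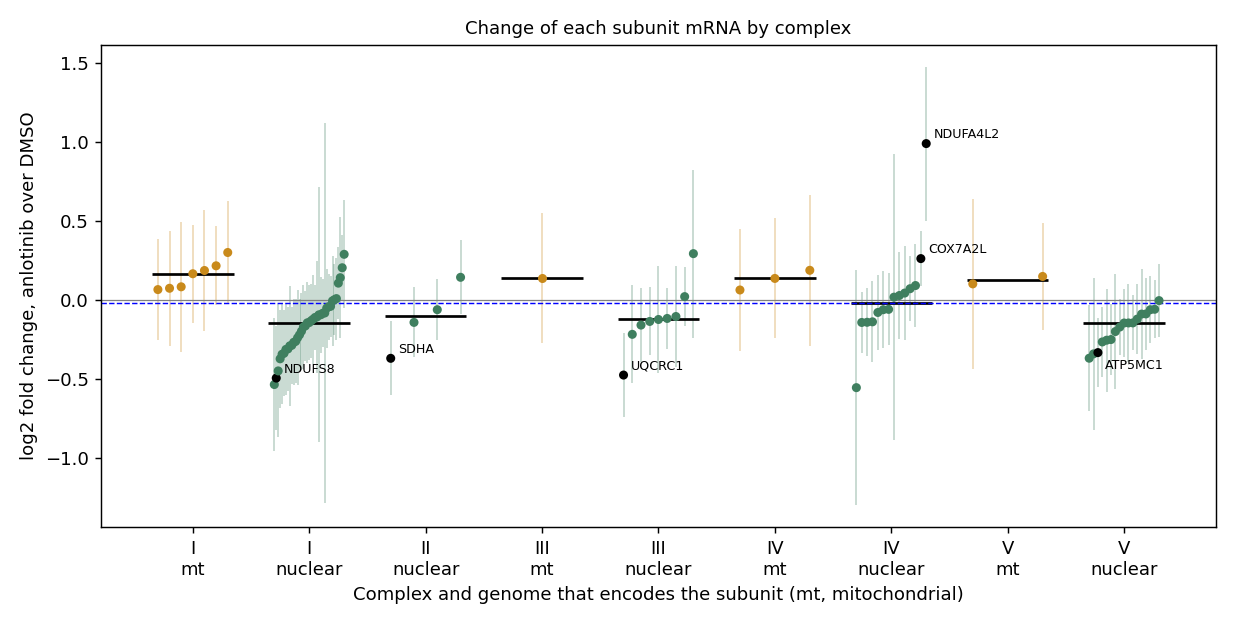
Each point is the log2 fold change of 1 gene, anlotinib over DMSO, with its 95% interval, grouped by complex and by the genome that encodes it; black points passed an adjusted p of 0.05, short lines are medians and the dashed line is the median of all genes tested. All mitochondrial points lie above 0, and all 17 nuclear complex V points lie below it, 5 of which turn positive with totals of nuclear genes, 3 with library totals and 1 in edgeR and DESeq2.

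In complex I, 31 of 37 nuclear genes had a negative log2 fold change, 1 fell and 36 did not pass. NDUFS8, which holds iron-sulfur clusters in the arm that joins the membrane part (chr11:68030617-68036644), had 1607, 1269 and 934 normalized counts in the anlotinib libraries, against 1792, 1777 and 1665 in the DMSO libraries. The anlotinib libraries spread widely, but even the highest was below the lowest DMSO library. NDUFS8 fell by 0.49 ± 0.15 on the log2 scale (SE, n = 3 each; adjusted p = 0.0335). With 1 library fewer the adjusted p was 0.0944 without anlotinib 2, 0.0535 without anlotinib 3, 0.119 without DMSO 1, 0.104 without DMSO 2 and 0.0758 without DMSO 3.

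The other core subunits of the redox arm described here did not pass. NDUFV1, which binds NADH and FMN, had 2082, 1743 and 1389 normalized counts in the anlotinib libraries, against 2139.8, 1937 and 2112 in the DMSO libraries, with a log2 fold change of -0.27 ± 0.13 (SE, n = 3 each; adjusted p = 0.149). NDUFS1, the large iron-sulfur subunit, averaged 1525 ± 113 with anlotinib and 1564 ± 84.6 with DMSO (SD, n = 3 each), a log2 fold change of -0.04. NDUFS3, which with others forms the part that reaches ubiquinone, had a log2 fold change of -0.16, and NDUFS7 one of 0.14. NDUFV2, also a core subunit, was counted at only 21.2, 65.6 and 52.3 normalized counts in the anlotinib libraries, against 36.4, 37.7 and 64.7 in the DMSO libraries, or 17.1 counts per kb with DMSO beside 408 for NDUFV1. Of its annotated exon bases 28.4 percent are shared with another gene on the same strand, and whether this bears on its low count was not tested. Among the 95 members 31 share exon bases with another gene on the same strand, 17 of them by more than 10 percent, NDUFA13, NDUFC2 and NDUFB8 included. On either strand 51 members do, by up to 61.6 percent with a gene on the opposite strand, and by 49.1 percent for NDUFS7. The strand setting of the counting is not given in the sources used here. Of the 6 that passed, NDUFS8 shares 3.18 percent, with microRNA genes, and NDUFA4L2 shares 1.18 percent with a gene on the opposite strand.

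Of the 30 accessory subunits of complex I none passed, and 25 had a negative log2 fold change. Those with an unadjusted p under 0.05 were NDUFB1, NDUFB10, NDUFB3, NDUFS4, NDUFS6, NDUFC2, NDUFA11 and NDUFA13, all negative, with NDUFB1 at -0.53 ± 0.19 (SE, n = 3 each; adjusted p = 0.0664) the lowest. NDUFB1, in the membrane arm, had 217, 164 and 179 normalized counts in the anlotinib libraries, against 216, 382 and 234 in the DMSO libraries, and its groups overlapped at 1 anlotinib library. Leaving out 1 library gave -0.69 (without DMSO 1) to -0.28 (without DMSO 2) on the log2 scale; NDUFB1 passed without anlotinib 1 (0.00975) and in DESeq2 (0.0309). NDUFC2 had 147, 145 and 149.8 normalized counts in the anlotinib libraries, against 178, 199 and 183 in the DMSO libraries, the anlotinib libraries close to each other and all below DMSO. In the other direction, NDUFAB1, the mitochondrial acyl carrier protein, had 558, 628 and 608 normalized counts in the anlotinib libraries, against 503, 549.9 and 500.0 in the DMSO libraries, and its log2 fold change was 0.21 ± 0.10 (SE, n = 3 each; adjusted p = 0.141).

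Complex II, succinate dehydrogenase, is wholly nuclear. SDHA, the subunit that binds FAD and oxidises succinate (chr5:218241-256700), had 2139, 1792 and 1567 normalized counts in the anlotinib libraries, against 2428, 2288 and 2317 in the DMSO libraries. Every anlotinib library was below every DMSO library, and SDHA fell by 0.37 ± 0.11 on the log2 scale (SE, n = 3 each; adjusted p = 0.0275). With 1 library fewer the adjusted p was 0.106 without anlotinib 2, 0.0501 without anlotinib 3, 0.109 without DMSO 1, 0.0743 without DMSO 2 and 0.0849 without DMSO 3. SDHA has near-identical pseudogenes in the table, so reads could be split between them. The iron-sulfur subunit SDHB averaged 708 ± 41.2 with anlotinib and 737 ± 23.8 with DMSO (SD, n = 3 each). The membrane anchors SDHC and SDHD had log2 fold changes of -0.14 and 0.15, and none of these 3 passed.

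In complex III, UQCRC1, a large core protein on the matrix side (chr3:48599002-48610976), had 2216, 1956 and 1502 normalized counts in the anlotinib libraries, against 2519, 2688 and 2570.1 in the DMSO libraries. Every anlotinib library lay below the DMSO libraries, and library 3 was the lowest. UQCRC1 fell by 0.47 ± 0.12 on the log2 scale (SE, n = 3 each; adjusted p = 0.0152), the smallest adjusted p among the members that fell. It passed without any 1 anlotinib library, and the adjusted p was 0.0529 without DMSO 1, 0.0663 without DMSO 2 and 0.0543 without DMSO 3. Its partner core protein UQCRC2 had 1974, 2149 and 1876 normalized counts in the anlotinib libraries, against 2234, 2023 and 2233 in the DMSO libraries, and a log2 fold change of -0.11 ± 0.09 (SE, n = 3 each; adjusted p = 0.381). The Rieske iron-sulfur protein UQCRFS1 averaged 2798 ± 198 with anlotinib and 2749 ± 138 with DMSO (SD, n = 3 each), with a log2 fold change of 0.02 and a 95% interval of -0.16 to 0.21. The difference between UQCRC1 and these subunits was not tested. UQCRHL, a near copy of the hinge protein gene UQCRH, shares its sequence, and the split of reads between them is uncertain.

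Complex IV held both members that rose. NDUFA4L2, a relative of NDUFA4 known as a target of hypoxia-inducible factor (chr12:57234903-57240715), had 87.8, 66.6 and 55.0 normalized counts in the anlotinib libraries, against 35.3, 31.6 and 34.9 in the DMSO libraries. It was low in all libraries, and the groups were apart: its log2 fold change was 0.99 ± 0.22 (SE, n = 3 each; adjusted p = 0.00726) with a 95% interval of 0.51 to 1.48. It passed without any 1 of the 6 libraries and in edgeR and DESeq2. NDUFA4 itself had 1422, 1411 and 1361 normalized counts in the anlotinib libraries, against 1483, 1695 and 1453 in the DMSO libraries, with a log2 fold change of -0.14 ± 0.09 (SE, n = 3 each; adjusted p = 0.28). As a share of the pair's summed counts, NDUFA4L2 made up 5.81, 4.50 and 3.88 percent in the anlotinib libraries, against 2.33, 1.83 and 2.35 percent in the DMSO libraries, so NDUFA4 remained the main transcript in every library.

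COX7A2L, known as a factor that joins complexes III and IV into supercomplexes (chr2:42333546-42425088), had 1512, 1483 and 1527 normalized counts in the anlotinib libraries, against 1262, 1306 and 1198 in the DMSO libraries. The libraries of each group lay close together and the groups were apart, with a log2 fold change of 0.26 ± 0.08 (SE, n = 3 each; adjusted p = 0.0331). With 1 library fewer the adjusted p was 0.105 without anlotinib 2, 0.0912 without DMSO 1, 0.0729 without DMSO 2 and 0.158 without DMSO 3, and with no filter on low counts it was 0.0614. The other 12 nuclear genes of complex IV did not pass, with log2 fold changes from -0.55 for COX6B2, counted at 10.5 to 28.8, to 0.09 for COX6C. COX7A2, the common form of a subunit that has a muscle form, averaged 815 ± 138 with anlotinib and 792 ± 81.2 with DMSO (SD, n = 3 each). Its muscle form COX7A1 gave 0.963 to 2.32 percent of the pair's counts over the 6 libraries, and COX6B2, the testis form of COX6B1, gave 0.380 to 1.18 percent.

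**Figure D4:**
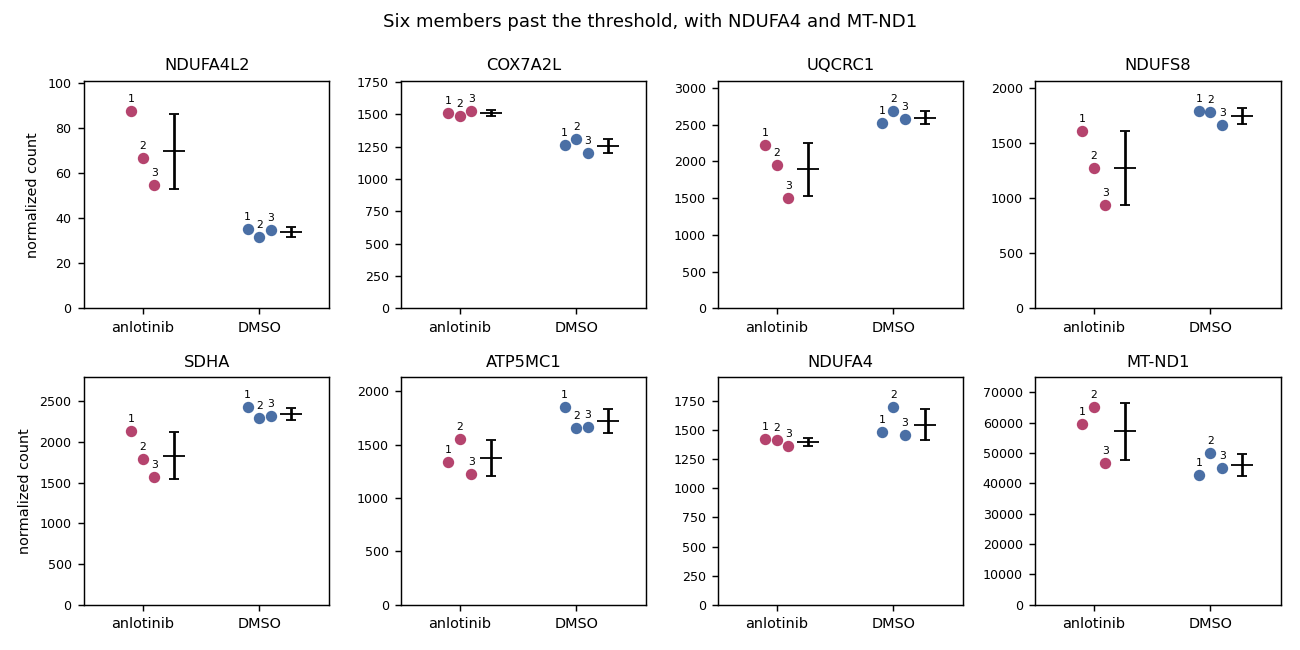
Normalized counts of the 6 members that passed, with NDUFA4 and MT-ND1, by library; numbers mark the replicate and bars the mean with its SD (n = 3). The groups are apart for the first 7 genes, and for MT-ND1 anlotinib library 3 lies within the DMSO range.

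All 17 nuclear genes of complex V that were tested had a negative log2 fold change, from -0.37 for ATP5F1D to -0.0013 for ATP5MD, and 1 fell; with libraries scaled by totals of nuclear genes ATP5F1C, ATP5MC2, ATP5MD, ATP5MF and ATP5PD were positive, with library totals 3 of these were, and in edgeR and DESeq2 ATP5MD was. Leaving out 1 library made 0 to 3 of the 17 positive. The 3 genes ATP5MC1, ATP5MC2 and ATP5MC3 encode the same mature c subunit, the ring that turns with the protons. ATP5MC1 (chr17:48892765-48895871) had 1341, 1555 and 1224 normalized counts in the anlotinib libraries, against 1851, 1651 and 1661 in the DMSO libraries. Its groups did not overlap, and it fell by 0.33 ± 0.10 on the log2 scale (SE, n = 3 each; adjusted p = 0.0326). The adjusted p was 0.0648 without anlotinib 3, 0.141 without DMSO 1, 0.0737 without DMSO 2 and 0.0822 without DMSO 3, and 0.0743 with libraries scaled by their totals.

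ATP5MC3 had 2503, 2302 and 1994 normalized counts in the anlotinib libraries, against 2589.5, 3005 and 2552 in the DMSO libraries, and a log2 fold change of -0.26 ± 0.10 (SE, n = 3 each; adjusted p = 0.0855); its groups were also apart. ATP5MC2 had 2324, 2328 and 1801 normalized counts in the anlotinib libraries, against 2256, 2362 and 2185 in the DMSO libraries, a log2 fold change of -0.09 ± 0.11 (SE, n = 3 each; adjusted p = 0.603) and overlapping groups. Per kb, ATP5MC1 gave 37.6 ± 2.25 percent of the 3 genes' sum with anlotinib and 40.5 ± 2.45 percent with DMSO (SD, n = 3 each), and ATP5MC2 38.5 ± 1.30 and 34.9 ± 0.696 percent. The catalytic F1 genes ATP5F1A and ATP5F1B encode the alpha and beta subunits. ATP5F1B was the highest nuclear member per kb, with 11694, 11555 and 9694 normalized counts in the anlotinib libraries, against 12072, 11719 and 11841 in the DMSO libraries, just apart between groups, and it had a log2 fold change of -0.12 ± 0.10 (SE, n = 3 each; adjusted p = 0.437). ATP5F1A had 4587, 4675 and 4362 normalized counts in the anlotinib libraries, against 5149, 4989 and 5173 in the DMSO libraries, and a log2 fold change of -0.17 ± 0.08 (SE, n = 3 each; adjusted p = 0.158). The peripheral stalk genes, which hold the F1 head still, had log2 fold changes of -0.25 (ATP5PF), -0.14 (ATP5PO), -0.14 (ATP5PB) and -0.09 (ATP5PD). In all, 7 of the 17 (41.2%) had groups that did not overlap after the authors' scaling, all lower. Over all genes tested 40.2% did not overlap in either direction, and 21.4% were the lower ones.

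Libraries of 1 group differed from each other in the members as a body. Anlotinib library 3 was the lowest of its group for 13 of 13 mitochondrial and 59 of 81 nuclear members (72.8%), beside 42.4% of all genes tested. Its median gap to the mean of the other anlotinib libraries was -0.41 for mitochondrial and -0.23 for nuclear members on the log2 scale. The size of these gaps depends on the scaling: the authors' factor for this library was 1.12, against 1.01 from library totals. As a share of all reads the nuclear members made up 0.559 percent there, against 0.585 and 0.590 percent in anlotinib libraries 1 and 2. The mitochondrial members made up 6.93 percent there, against 7.73 and 8.59 percent. Among controls, DMSO library 1 was the lowest for all 13 mitochondrial genes, while DMSO library 2 was the highest for 12 of 13 and for 47 of 81 nuclear members. Without anlotinib library 3 the median log2 fold change was 0.29 for mitochondrial and -0.05 for nuclear members, and 5 members passed, while 21.6% of all genes did. Without anlotinib library 1, 21 members passed, 3 higher and 18 lower, while 34.8% of all genes did. Without anlotinib library 2, 3 members passed, while 12.6% of all genes did. Without DMSO library 1, 2 or 3, NDUFA4L2 alone passed, while 14.5%, 14.4% and 14.7% of all genes did.

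**Figure D5:**
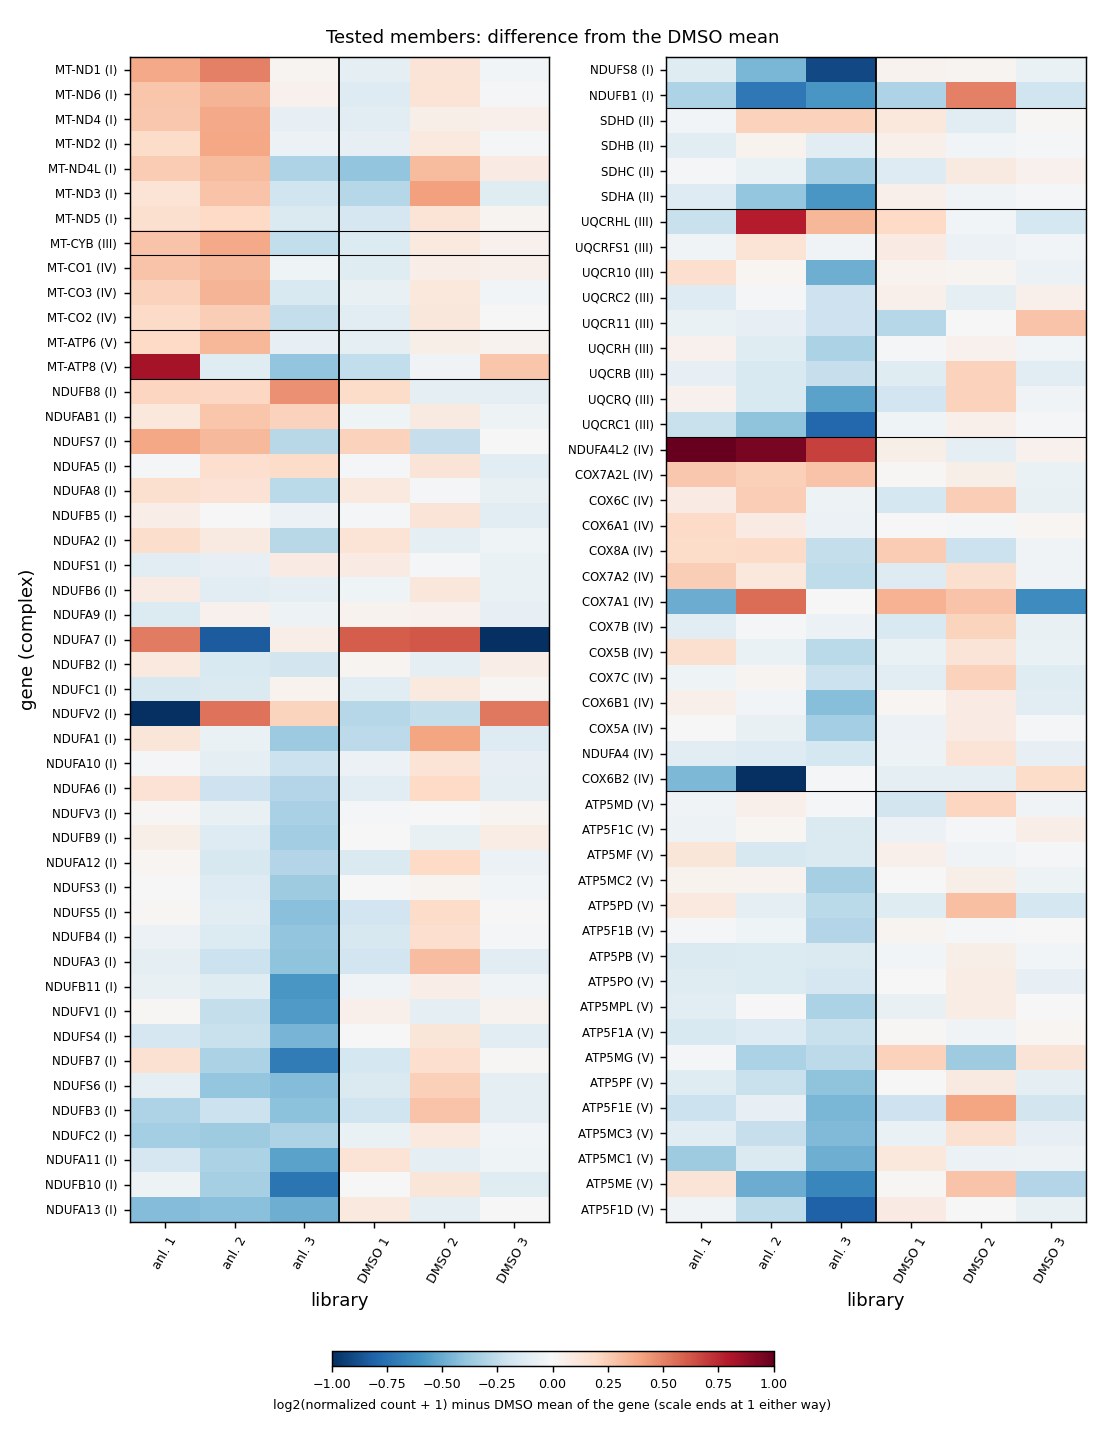
Colour gives log2(normalized count + 1) minus the mean of the 3 DMSO libraries for the tested members, 1 of complex I left out, with the complex in brackets; lines separate the genomes and complexes. The mitochondrial rows are warm in anlotinib libraries 1 and 2 and pale or cool in library 3, where most nuclear rows are coolest.

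Of the 82 nuclear members 63 had an entry in the RefSeq promoter table (GRCh38.p14, 250 bases before to 50 after RefSeq's gene start). RefSeq's start differs from that of the GENCODE 29 gene, whose coordinates are given elsewhere here, by more than 100 bases for 27 of the 63. These were searched on both strands for motifs of 3 factors known from respiratory genes, and no match overlapped a match to another motif. The palindrome bound by NRF1 (nuclear respiratory factor 1), GCGCA followed directly by its reverse complement TGCGC, was in 4 of 63 members (6.35%) and in 2.60% of 10409 tested protein-coding genes with an entry. AAGATGGCG, the YY1 motif, was in 9 members (14.3%) and in 4.58% of the genes. CCGGAAG, an ETS motif that GABP binds, was in 19 members (30.2%) and in 21.7% of the genes. The windows with NRF1 matches, in capitals, are shown since they come from complexes I, II and V, none of them from a member that passed: ATP5F1C (chr10:7788145-7788174, plus strand), NDUFA8 (chr9:122159764-122159793, minus strand), NDUFB4 (chr3:120596167-120596196, plus strand) and SDHD (chr11:112086753-112086782, plus strand).
ATP5F1C: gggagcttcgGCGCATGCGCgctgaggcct
NDUFA8: gttgccggatGCGCATGCGCaggcgccgtg
NDUFB4: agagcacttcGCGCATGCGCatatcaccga
SDHD: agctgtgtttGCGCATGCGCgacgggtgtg
The matches began 22, 4, 159 and 110 bases before RefSeq's start, which lies 48 (ATP5F1C), 40 (NDUFA8), 27 (NDUFB4) and 100 (SDHD) bases inside the GENCODE gene.

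Of the members that passed, UQCRC1 alone held any of the 3 motifs among the 5 with an entry; NDUFA4L2 was not matched. The YY1 match, in capitals, began at base 24 counted from RefSeq's start, and in 8 of the 9 members with this motif it began at bases 11 to 26. The UQCRC1 promoter (chr3:48609597-48609896, minus strand) is given whole as that of the member with the smallest adjusted p among those that fell; RefSeq's start for it lies 1330 bases inside the GENCODE gene.
UQCRC1: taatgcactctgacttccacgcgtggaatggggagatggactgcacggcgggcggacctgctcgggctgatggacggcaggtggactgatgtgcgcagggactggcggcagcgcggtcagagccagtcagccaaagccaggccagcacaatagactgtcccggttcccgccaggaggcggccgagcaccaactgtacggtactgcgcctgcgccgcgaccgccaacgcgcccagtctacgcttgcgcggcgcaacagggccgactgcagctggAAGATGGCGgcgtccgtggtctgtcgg
A match describes letters in this window and is not evidence of binding, and a window with no match says nothing of the factor.

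Of 76 other genes of the pathway, 75 were in the table and 73 were tested. In limma 4 rose, 3 fell and 66 did not pass, with a median log2 fold change of -0.03. Among all genes tested 23.2% passed, a larger share than among these 73. Of the genes for subunits and carriers outside the name rule, 5 were tested and none passed; CYC1, the cytochrome c1 of complex III, averaged 2715 ± 569.8 with anlotinib and 3444 ± 141 with DMSO (SD, n = 3 each; log2 fold change -0.36, adjusted p = 0.0601). ESRRA, a nuclear receptor that drives respiratory genes, averaged 1175 ± 122 with anlotinib and 832 ± 26.0 with DMSO (SD, n = 3 each; log2 fold change 0.49, adjusted p = 0.00283). The coactivator gene PPARGC1B averaged 353 ± 69.8 with anlotinib and 244 ± 19.0 with DMSO (SD, n = 3 each; log2 fold change 0.51, adjusted p = 0.0256). Its relative PPRC1 fell, with 1407 ± 38.7 with anlotinib and 1680.0 ± 104 with DMSO (SD, n = 3 each; log2 fold change -0.25, adjusted p = 0.046). Among assembly factors, ACAD9 for complex I averaged 339.8 ± 55.5 with anlotinib and 484 ± 26.9 with DMSO (SD, n = 3 each; log2 fold change -0.52, adjusted p = 0.00958). NDUFAF4, also for complex I, averaged 295 ± 41.8 with anlotinib and 218 ± 17.8 with DMSO (SD, n = 3 each; log2 fold change 0.43, adjusted p = 0.0319). BCS1L, which inserts the Rieske protein into complex III, averaged 468 ± 66.4 with anlotinib and 607 ± 51.9 with DMSO (SD, n = 3 each; log2 fold change -0.38, adjusted p = 0.0353). COX10, which carries out a step in making the heme of complex IV, averaged 548.95 ± 30.3 with anlotinib and 435 ± 21.1 with DMSO (SD, n = 3 each). The log2 fold change of COX10 was 0.34 (adjusted p = 0.0254 in limma). None of the 12 genes for copying and transcribing mitochondrial DNA passed. Of these 7 calls ESRRA held with every library left out in turn; the others were lost without at least 1 library. Their highest adjusted p was 0.171 for NDUFAF4, 0.0501 for ACAD9, 0.123 for COX10 and 0.111 for PPARGC1B without anlotinib 2, and 0.151 for BCS1L and 0.191 for PPRC1 without DMSO 2. PPRC1 was also lost in edgeR (0.0577) and DESeq2 (0.0634). In limma it was lost with library totals (0.143), totals of nuclear genes (0.189) and a replicate term (0.0564). The same held with no filter (0.0813) and with a minimum mean of 1 (0.0645). BCS1L was lost in limma with library totals (0.0634) and totals of nuclear genes (0.0841).

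The authors' deposited table gave an adjusted p under 0.05 for 8 of the 95 members, 3 higher and 5 lower. The 8 included the 6 above. It gave the same for 10.4% of its 30483 genes. Only 15734 of these averaged 10 or more normalized counts, against 94 of the 95 members, so the shares do not compare like genes. In the authors' deposited table the log2 fold change was 0.31 for MT-ND1 (adjusted p = 0.0458), and NDUFB1 was the other gene called there and not in limma.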

How the data were processed

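Per the labels' protocols, Trizol was used for the RNA and a SMARTer mRNA kit for the libraries. The authors deposited 1 joint table of counts divided by size factors (a normalized read signal per gene) with their own log2 fold changes and p-values; 5 single-library files repeat it. Whole reads were recovered from the deposited values: 100% of values were whole multiples of 1 read within 1e-06. The submitters' processing notes name the mouse build mm9, but all 30483 gene identifiers are human and in GENCODE 29, and 30477 lengths equal its exon unions, so coordinates are GRCh38. The sources used here do not name an aligner, counter or strand setting.

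The 15734 genes that averaged 10 or more normalized counts were tested with limma 3.58.1 (trend) on log2(value + 1), Benjamini-Hochberg threshold 0.05, all 6 libraries in 1 fit, and the scripts were tested on simulated data. edgeR 4.0.16, DESeq2 1.42.0, other pseudocounts, filters and scalings, a replicate term and leaving out each library were alternatives. Intervals are 95%. Libraries of equal replicate number did not deviate together, so the fit has no pairing. The members and lists were chosen with earlier results of these data known. Text names all mitochondrial genes, the 3 nuclear genes of smallest p in each complex, core subunits and isoform groups, and others by count, except 1 complex I member that is not reported here by name; NDUFAB1, NDUFC2 and the pathway genes that passed were singled out after their values were seen.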

Additional observations from a re-analysis of the deposited data

Results flagged for a closer look

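Outside the protein-coding members, 24 genes of the mitochondrial chromosome encode tRNAs and rRNAs, and 5 tRNA genes passed, all higher with anlotinib. The libraries were made with an mRNA kit, and whether these reads stem from mature tRNAs or from longer precursors was not tested. Of 22 tRNA genes 17 were tested, 5 rose and none fell in limma. Among all genes tested 10.5% rose and 12.7% fell. The log2 fold changes were 1.01 for MT-TV (adjusted p = 0.0205), 0.76 for MT-TL1 (0.0182), 0.92 for MT-TY (0.0204), 1.20 for MT-TD (0.011) and 1.08 for MT-TT (0.02). Each of these 5 had all 3 anlotinib libraries above all 3 DMSO libraries, as did 18.8% of all genes tested. MT-TD, for example, had 48.4, 51.3 and 34.6 normalized counts with anlotinib, against 23.6, 13.3 and 20.5 with DMSO. DMSO library 2 was the lowest of all 6 libraries for these 5 genes. The calls of MT-TV, MT-TL1 and MT-TT were lost without DMSO library 2, with adjusted p of 0.0681 (MT-TV), 0.0861 (MT-TL1) and 0.0692 (MT-TT), and all 5 without anlotinib library 2, between 0.0651 and 0.11. MT-TV (0.0577) and MT-TL1 (0.0837) were also lost without DMSO library 1, and MT-TY in DESeq2 (0.0947). MT-TW, too low to be tested, also had groups apart. It had 9.08, 16.2 and 18.6 normalized counts with anlotinib, against 6.43, 3.06 and 3.08 with DMSO. Neither rRNA gene passed, with a median log2 fold change of 0.18.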

How the results depend on the processing

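Of members, 2 rose and 4 fell in the reported fit; 1 rose with no filter, 4 with library totals and 4 with totals of nuclear genes. Leaving out 1 library gave 1 to 4 higher, 0 to 18 lower, 0 to 2 mitochondrial members changed (0 with all libraries) and 1979 to 5473 genes in all (3648). Mitochondrial members changed numbered 2 with either library total and 1 with DESeq2. Complex medians under library totals, totals of nuclear genes and 1 library left out were -0.0652, -0.0423 and -0.24 to -0.082 for I, -0.024, -0.00103 and -0.14 to -0.0402 for II, -0.0461, -0.0233 and -0.193 to -0.0554 for III, 0.0547, 0.0769 and -0.0923 to 0.0467 for IV (-0.018 as reported), and -0.0681, -0.0451 and -0.176 to -0.114 for V. Library totals shifted the median of all genes by up to 0.097; relative to it, the nuclear median was -0.11 under each scaling and the mitochondrial one 0.16. The cause of these shifts was not tested. A replicate block called 7 members, 1 higher and 6 lower, with COX7A2L lost (0.0512), and NDUFB10 and ATP5F1D added. Deviations of same-numbered libraries from their group means correlated at -0.0407, 0.0259 and -0.0029. No shared deviation was thus seen, which does not settle whether the libraries were paired. Adding the nuclear copies' reads, chosen after seeing the data, moved no call. The medians of nuclear and mitochondrial members and their difference (0.21 to 0.34 with 1 library left out) kept their direction in all 18 alternatives. Replicates of 3 limit these data. Of 94 intervals 91 lay within 1 log2 unit of 0. The median half-width was 0.26 log2 units, so for a typical member changes of that size or less can be missed. Larger changes can be missed too, since the intervals are not adjusted and the calls are. NDUFC2, for example, had a log2 fold change of -0.33 and did not pass in limma (adjusted p = 0.0729).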
